A study of Mus musculus with 6 samples.

Results

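The BH3-only genes encode the death-inducing branch of the Bcl2 family. The set described here holds the mouse genes Bmf, Bcl2l11, Bbc3, Pmaip1, Bid, Bad, Bik and Hrk, chosen by name, and all 8 were found among the 26286 genes of the count table by their Entrez identifiers. They were measured by RNA sequencing in 6 libraries of 1 B progenitor acute lymphoblastic leukemia, A024, which carries 3 transgenes per its label ("tri-transgenic"). Dox libraries, 3 in number, came from mice given doxycycline (dox) in food for 3 days, which the labels call Pax5 restoration, and the 3 others came from untreated mice. In every case the leukemia cells had been sorted from the marrow of Rag1 knockout mice, as GFP-mid cells after dox and as GFP-high cells without it. Sort gate and treatment therefore cannot be told apart, and the replicates are mice that carry a single leukemia. Age, sex and strain were not given in the sources used here, the labels do not describe the transgenes, and no dox-treated leukemia without them was used here. As background, in the published model dox shuts off a hairpin RNA against Pax5, the factor that commits progenitors to the B lineage.

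BH3-only proteins act as sensors of cell damage and of lost survival signals. Each carries a short BH3 helix that fits into a groove of the protective family members, called guardians here, such as Bcl-xL and Mcl1. Occupied guardians release the pore formers Bax and Bak, and some BH3-only proteins also activate these directly, after which the outer membrane of mitochondria is breached and caspases are switched on. In developing B cells the family removes cells that fail selection, and the loss of Bcl2l11 or Bbc3 is known to speed Myc-driven lymphoma in mice.

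Total counts ran from 14185203 to 15612435 per library. Levels are in reads per 1000000 counted reads (CPM) after TMM scaling, which corrects for differences in library composition, and values per kilobase of the deposited gene length (RPKM) are used wherever genes are compared with each other. Genes were compared with the quasi-likelihood test of edgeR over 12275 genes that passed the low-count filter, and the threshold for a call was 0.05 after Benjamini-Hochberg adjustment over all of them. Pax5 measured 227.2, 281.2 and 230.6 CPM in dox libraries and 153.8, 93.45 and 105.2 CPM in untreated libraries, so the groups did not overlap (log2 fold change 1.07, SE 0.17, adjusted p = 0.000695, edgeR). All 8 B progenitor markers rose, and Vpreb1, part of the surrogate light chain, was high in every library (1335 to 1460 CPM after dox, 777.9 to 805.7 CPM untreated). All 7 tested neutrophil markers rose after dox, with the 8 listed genes summing to 521.7, 112.6 and 248.4 CPM in dox replicates 1, 2 and 3 and to 87.62 to 111.6 CPM in untreated libraries, led by S100a9 and S100a8. Of 7 tested macrophage markers 6 rose, and the sum of the 8 listed, led by Cd68 and Mrc1, was 19.4 to 26.92 CPM after dox and 5.837 to 10.14 CPM untreated, with none of the 8 at 0 in all 6 libraries. Of 8 T and NK cell markers, Cd3e, Cd8a and Trbc2 had no read, and the sum stayed under 1 CPM per library (0.3481 to 0.8323 CPM after dox, 0.06798 to 0.3354 CPM untreated). Of 8 plasma cell markers, 7 were tested, 4 rose and 2 fell. The sum of the 8 was 2315 to 2794 CPM after dox and 1816 to 1959 CPM untreated, led by Irf4 and Mzb1, which rose. Sdc1 was lower after dox (mean 17.22 CPM, against 50.29 CPM untreated), as was Jchain (58.32 against 192.0 CPM). Tnfrsf17 had 1 read, in untreated replicate 2. The direction of the sum was therefore not shared by the whole list. Erythroid genes, Hbb-b1 and Hba-a1 foremost, had no call among 3 tested and summed to 1.323 to 7.7 CPM after dox and 3.69 to 5.592 CPM untreated. The part of these other cell types in the results below was not tested. Beside the marker counts, 27.0% of all tested genes were called higher and 26.6% lower. In bulk libraries, fewer cells that express a gene and less RNA per cell cannot be told apart.

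Of the 8 BH3-only genes, Bmf and Bcl2l11 rose after dox, Bid and Pmaip1 fell, and Bbc3 and Bad did not pass the test. Bik and Hrk were at or near 0 reads and were not tested. Over all genes tested, 27.0% were called higher and 26.6% lower (53.6% in all), so calls for 2 of 6 tested genes in each direction are near the background. What stood out against it was the size of the change of Bmf: 7.87% of tested genes were called with a rise of 2-fold or more and 3.86% with a fall of that size, and Bmf ranked 104 by log2 fold change among the 12275. Of the 6 tested BH3-only genes, it was the only one past 2-fold. The median log2 fold change was 0.14 over the 6 tested BH3-only genes and 0.01 over all tested genes.

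Promoter sequences of the genes with the largest changes are shown to place the measured genes in the genome, together with the Bbc3 window that holds the same motif as Bcl2l11. They come from RefSeq on GRCm38.p6, a later build than the mm9 of the counts, and cover the 250 bases before an annotated transcript start, 5′ to 3′ on the strand of the gene. Capitals mark matches to the motifs searched, and the Bmf window has none. The Bmf window is chr2:118549687-118549936 on the minus strand, before the most upstream of 3 annotated starts. The Bcl2l11 window is chr2:128125788-128126037 on the plus strand, the Bid window chr6:120916825-120917074 on the minus strand and the Bbc3 window chr7:16310011-16310260 on the plus strand.
Bmf: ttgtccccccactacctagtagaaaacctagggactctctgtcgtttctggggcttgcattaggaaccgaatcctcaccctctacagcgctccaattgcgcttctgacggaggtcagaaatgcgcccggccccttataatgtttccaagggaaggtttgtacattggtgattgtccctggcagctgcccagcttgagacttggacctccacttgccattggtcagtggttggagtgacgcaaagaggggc
Bcl2l11: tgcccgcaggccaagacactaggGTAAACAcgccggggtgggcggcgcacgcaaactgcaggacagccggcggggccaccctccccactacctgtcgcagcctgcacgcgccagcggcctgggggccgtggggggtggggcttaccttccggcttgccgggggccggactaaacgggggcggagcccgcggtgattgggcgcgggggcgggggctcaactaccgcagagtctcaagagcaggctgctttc
Bid: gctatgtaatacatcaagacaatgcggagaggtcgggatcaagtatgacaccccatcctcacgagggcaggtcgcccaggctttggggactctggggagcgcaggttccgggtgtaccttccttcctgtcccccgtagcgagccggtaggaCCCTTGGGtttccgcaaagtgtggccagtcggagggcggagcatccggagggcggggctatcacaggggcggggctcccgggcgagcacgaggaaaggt
Bbc3: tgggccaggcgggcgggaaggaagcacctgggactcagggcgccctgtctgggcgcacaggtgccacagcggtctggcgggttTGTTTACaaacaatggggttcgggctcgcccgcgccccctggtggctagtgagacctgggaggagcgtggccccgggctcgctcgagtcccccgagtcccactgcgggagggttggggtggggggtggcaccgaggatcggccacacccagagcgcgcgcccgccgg

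The motifs searched on both strands were GTAAACA (the core bound by forkhead factors such as Foxo proteins), CACGTG (the E-box of Myc and Max), CCCNNGGG (the core of the Ebf1 site), TTTGGCGC and TTTCGCGC (E2F) and TGACGTCA (the CRE of Creb and ATF factors). Among 12 windows of 6 BH3-only genes, GTAAACA was found in 2, 227 bases before a start of Bcl2l11 and, as its reverse complement, 167 bases before a start of Bbc3. It occurs in 3.17% of all 32851 windows. CCCNNGGG was found in 3 windows (Bid, Bbc3 and Hrk), against 11.8% of all windows, and CACGTG in 1 window of Bbc3, against 6.02%. None of the 12 windows held TTTGGCGC, TTTCGCGC or TGACGTCA, which occur in 0.417%, 0.256% and 1.55% of all windows. The Bmf windows held no match to any of these letters. The windows of Bcl2l11 and Bbc3 that hold GTAAACA had a GC content of 72.0% and 72.4%, against 54.0% for the Bmf window shown and a median of 52.4% over all windows. The windows of these genes without GTAAACA were at 73.2% (Bcl2l11) and at 76.4% and 81.6% (Bbc3). High GC content was therefore not particular to the windows with the motif.

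Bmf, the Bcl2-modifying factor, is known as a sensor of lost anchorage that is held on myosin motors by a dynein light chain. It measured 376.4, 544.2 and 302.8 CPM in dox replicates 1, 2 and 3, against 62.49, 64.2 and 41.67 CPM in untreated replicates 1, 2 and 3. The lowest dox library held 4.72 times the level of the highest untreated library. Dox replicate 2 was the highest library and replicate 3 the lowest of its group in both conditions. The fold change was 7.26 (95% interval 5.06 to 10.4, log2 fold change 2.86, SE 0.23, adjusted p = 1.74e-05, edgeR quasi-likelihood test). The counts behind it were 18265 reads over the dox libraries and 2464 over the untreated libraries. The spread among mice was the widest of the 4 called BH3-only genes, with a coefficient of variation of 30.3% after dox and 22.4% untreated. The summed neutrophil markers, also higher after dox, were 521.7, 112.6 and 248.4 CPM in dox replicates 1, 2 and 3, and their part in the Bmf result was not tested. Leaving out dox replicate 1, 2 or 3 gave log2 fold changes of Bmf of 2.91, 2.6 and 3.03. Dox replicates 1 and 3 had larger neutrophil sums than every untreated library. That of dox replicate 2 (112.6 CPM) was close to that of untreated replicate 1 (111.6 CPM). Leaving out 1 dox library always keeps replicate 1 or 3, so it does not remove the difference in neutrophil markers.

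Bcl2l11 encodes Bim, which can bind every guardian and is required for the removal of self-reactive lymphocytes. It measured 121.8, 105.5 and 119.9 CPM in dox libraries, against 64.65, 57.9 and 62.2 CPM in untreated libraries. The groups were well apart, with the lowest dox library at 1.63 times the highest untreated one. The fold change was 1.88 (95% interval 1.66 to 2.13, log2 fold change 0.91, SE 0.08, adjusted p = 2.93e-05, edgeR). Acoxl, an upstream gene whose RefSeq annotation overlaps Bcl2l11, measured 0.2784 CPM at most in any library.

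Bid is activated when caspase-8 cuts its protein, and so carries the signal of death receptors to mitochondria. It measured 43.04, 43.86 and 42.77 CPM in dox libraries, against 73.46, 68.76 and 68.05 CPM in untreated libraries. Variation was small, with a coefficient of variation of 1.31% after dox and 4.2% untreated, and every dox library lay below every untreated one. The ratio of dox to untreated was 0.617 (95% interval 0.554 to 0.687, log2 fold change −0.70, SE 0.07, adjusted p = 4.87e-05, edgeR).

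Pmaip1 encodes Noxa, a p53 target whose protein binds mainly Mcl1. It measured 11.65, 11.76 and 10.82 CPM in dox libraries, against 17.19, 14.42 and 17.47 CPM in untreated libraries. The groups did not overlap. The ratio was 0.697 (95% interval 0.581 to 0.837, log2 fold change −0.52, SE 0.12, adjusted p = 0.00462, edgeR). When a change of at least 1.5-fold was asked for, Bmf and Bcl2l11 were still called and neither Bid nor Pmaip1 was.

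Bbc3 encodes Puma, a p53 target that binds all guardians. It measured 12.7, 5.151 and 11.72 CPM in dox replicates 1, 2 and 3, against 10.14, 5.501 and 11.76 CPM in untreated replicates 1, 2 and 3. The groups overlapped, and replicate 2 was the lowest library in each of them. The log2 fold change was 0.11 (95% interval −0.67 to 0.90, adjusted p = 0.802, edgeR), an interval that allows changes from 0.63-fold to 1.86-fold. The estimate was negative without dox replicate 1 (−0.11), without dox replicate 3 (−0.03) or without untreated replicate 2 (−0.15), so no direction can be given.

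Bad is kept inactive by phosphorylation and 14-3-3 proteins when growth factor signals are present. It measured 18.89, 19.14 and 20.81 CPM in dox libraries, against 18.17, 16.64 and 17.47 CPM in untreated libraries. The groups did not overlap, which was so for 5 of the 6 tested BH3-only genes and for 62.2% of all tested genes. The difference was small (log2 fold change 0.17, 95% interval −0.04 to 0.38, adjusted p = 0.152, edgeR). Gpr137, which overlaps Bad on the opposite strand in the GRCm38 annotation, measured 25.21, 25.55 and 20.55 CPM after dox and 15.1, 15.03 and 16.31 CPM untreated (log2 fold change 0.62). The strand setting of the counting was not given in the sources used here, so reads of the overlap cannot be assigned to either gene with certainty.

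Hrk, known for its role in neurons, had 0 reads in every library, and Bik had 0 reads in the dox libraries and 1 read in untreated replicate 3. A count of 0 allows up to 0.0662 CPM over the dox libraries and up to 0.0684 CPM over the untreated libraries, taking 3 counts as the limit. Because of its 1 untreated read, the untreated limit does not apply to Bik. Neither gene had more than 1 read in any library, and these limits cover counting error only. Other genes annotated near the members, such as Sae1 beside Bbc3 and Bcl2l13 beside Bid, were not called (log2 fold changes −0.08 and −0.16).

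**Figure D1:**
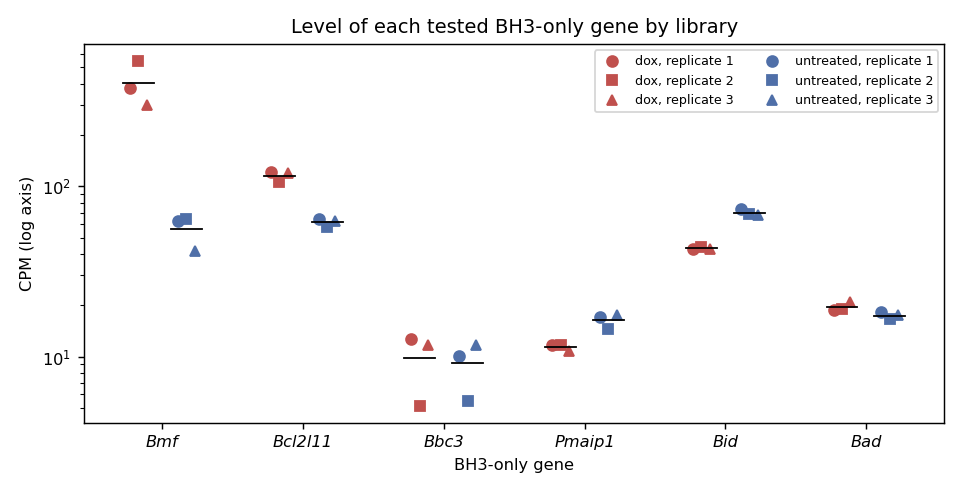
Level of the 6 tested BH3-only genes in each library, in CPM on a log axis. Circles, squares and triangles are replicates 1, 2 and 3, red for dox and blue for untreated, and black lines are group means. Bmf lies between 302.8 and 544.2 CPM after dox and between 41.67 and 64.2 CPM untreated, while Bbc3 is lowest in replicate 2 of each group.

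The order of the genes per kilobase differed between the groups. After dox, Bmf was the most abundant BH3-only transcript at 88.01 ± 26.7 RPKM (SD, n = 3), followed by Bcl2l11 at 22.98 ± 1.77 and Bid at 22.86 ± 0.299 RPKM, which did not differ beyond their spread, and by Bad at 13.51 ± 0.718 RPKM. Bbc3 (4.988 ± 2.08 RPKM) and Pmaip1 (4.3 ± 0.194 RPKM) were last, with the Pmaip1 libraries inside the wider range of Bbc3. In untreated mice Bid was the most abundant at 37.07 ± 1.56 RPKM. There, Bcl2l11 (12.23 ± 0.679 RPKM), Bmf (12.11 ± 2.71 RPKM) and Bad (12.0 ± 0.529 RPKM) came next and overlapped, ahead of Pmaip1 (6.165 ± 0.635 RPKM) and Bbc3 (4.622 ± 1.64 RPKM), whose libraries also overlapped. The deposited table gives a single length per gene, so isoforms of different length are not accounted for.

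Summed over the 8 genes, BH3-only transcripts reached 152.0, 181.8 and 136.1 RPKM in dox libraries, against 89.3, 81.39 and 81.96 RPKM in untreated libraries. Bmf alone made up 55.4% ± 8.46 of the sum after dox and 14.4% ± 3.09 untreated (SD, n = 3), with no overlap. Bid made up 14.8% of the sum on average after dox and 44.0% untreated. With Bmf left out, the sum over the other genes was 70.77, 64.37 and 70.76 RPKM after dox and 75.81, 67.54 and 72.97 RPKM untreated, and these ranges overlap. The groups were thus apart with Bmf in the sum and overlapped without it. Bmf had the largest rise of the set, so a smaller gap without it follows from that choice. No other gene was left out in turn. The remaining sum holds opposite changes, with Bcl2l11 at 22.98 RPKM after dox and 12.23 RPKM untreated, and Bid at 22.86 and 37.07 RPKM.

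Guardian genes were set beside this sum because their proteins bind the BH3-only proteins. Of 8 listed guardians, 4 were tested and Bcl2l1 (log2 fold change 1.20, SE 0.10, adjusted p = 2.49e-05), Bcl2l2 (0.89, SE 0.11, adjusted p = 0.000135) and Mcl1 (0.67, SE 0.09, adjusted p = 0.000212) rose after dox by the edgeR test. Bcl2 stayed low, at 4.067 ± 0.48 CPM after dox and 3.257 ± 1.86 CPM untreated (SD, n = 3). Bcl2a1a, Bcl2a1b and Bcl2a1d, near-identical copies that counting may split, and Bcl2l10 were too low to test. The share called higher over all tested genes was 27.0%. Guardian transcripts summed to 326.6, 319.0 and 285.1 RPKM in dox libraries and to 180.8, 158.4 and 153.7 RPKM in untreated libraries. The summed BH3-only level divided by the summed guardian level was 0.465, 0.57 and 0.477 after dox and 0.494, 0.514 and 0.533 untreated, with overlapping ranges. Without Bmf it was 0.217, 0.202 and 0.248 after dox and 0.419, 0.426 and 0.475 untreated, and these ranges were apart. That gap depends on leaving out the BH3-only gene with the largest rise. These sums describe RNA only and weigh all genes alike.

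**Figure D2:**
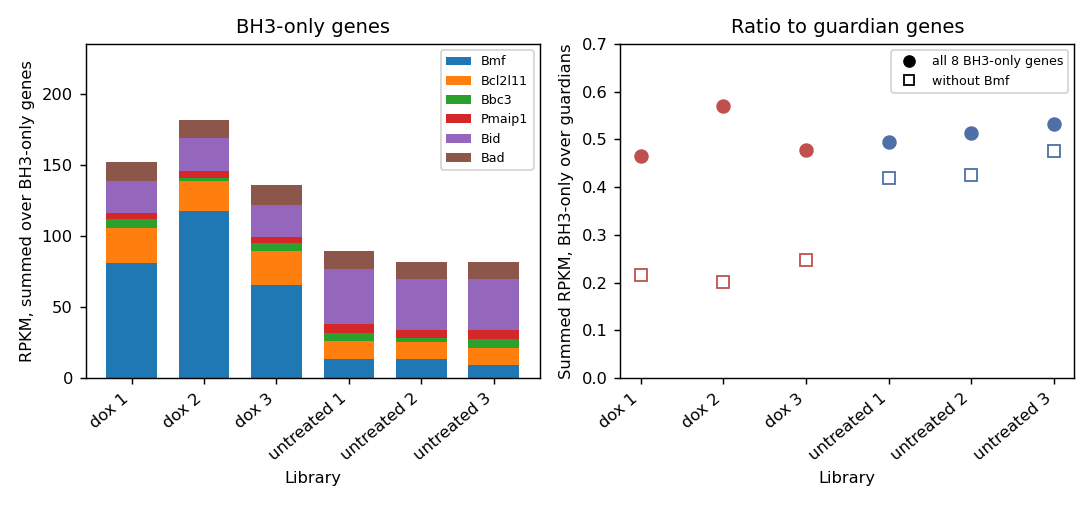
Summed level of BH3-only genes by library in RPKM, stacked by gene (left), and the same sum divided by the summed RPKM of the guardian genes (right, red for dox and blue for untreated, filled circles for all 8 genes and open squares without Bmf). The Bmf share averages 55.4% after dox and 14.4% untreated, and the ratio with Bmf overlaps between the groups.

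Among the pore formers, Bok fell (log2 fold change −1.77, SE 0.37, adjusted p = 0.00295) and was low, at 0.7156 ± 0.286 CPM after dox and 2.449 ± 0.756 CPM untreated (SD, n = 3, edgeR). Bax changed by −0.33 (SE 0.11, adjusted p = 0.0282, edgeR) and was not called without dox replicate 2, untreated replicate 1 or untreated replicate 3. Bak1 changed by −0.09 (95% interval −0.25 to 0.07) and was not called.

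**Figure D3:**
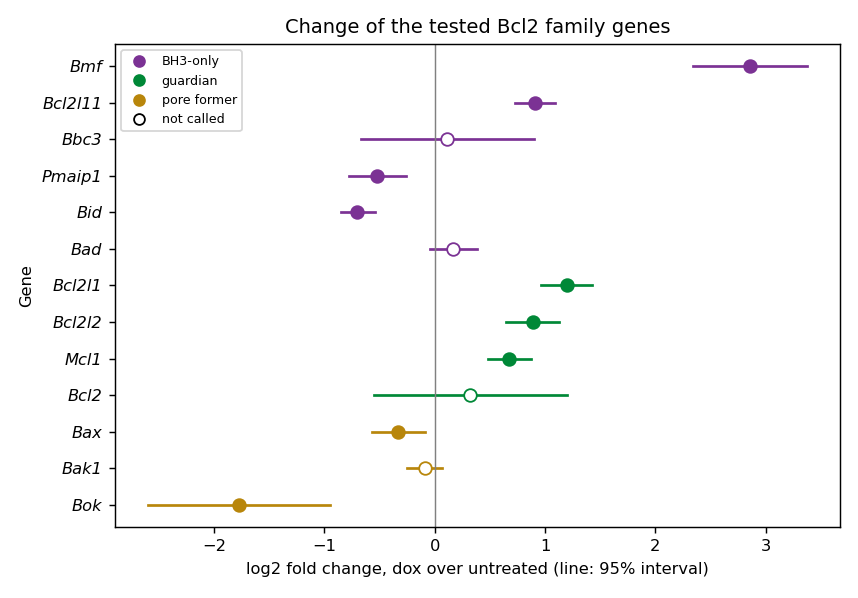
Log2 fold change, dox over untreated, of the tested BH3-only genes (purple), guardians (green) and pore formers (ochre), with 95% intervals. Filled points were called at an adjusted p under 0.05. Bmf lies apart at 2.86, the called guardians lie between 0.67 and 1.20, and the interval of Bbc3 spans 0.

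Ratios of 2 genes within a library asked whether family members changed by different amounts. Such a ratio does not depend on the scaling between libraries, and its difference between groups does not depend on gene length. The log2 ratio of Bmf to Bcl2l11 was 1.63, 2.37 and 1.34 in dox libraries and −0.05, 0.15 and −0.58 in untreated libraries, a difference of 1.94. Every dox library lay above every untreated library. For Bmf to Bcl2l1 (Bcl-xL) the ratio averaged 0.11 ± 0.27 after dox and −1.55 ± 0.28 untreated (SD, n = 3), a difference of 1.65, again with no overlap. Bcl2l11 and Bcl2l1 kept closer to each other, with log2 ratios of −1.66, −1.95 and −1.40 after dox and −1.43, −1.46 and −1.27 untreated. That difference of −0.28 was within the overlap of the groups (exact two-sided permutation p = 0.3), and it was −0.14 without dox replicate 2 and −0.42 without dox replicate 3. Relative to Mcl1, Bcl2l11 was higher after dox by 0.23 and Pmaip1 lower by 1.19 (log2 ratios of −5.51 ± 0.1 after dox and −4.31 ± 0.17 untreated, SD, n = 3). The ratio of Bad to Bcl2l1 was −4.23 ± 0.27 after dox and −3.21 ± 0.09 untreated (SD, n = 3). Of 6 ratios compared, 5 did not overlap between groups and gave an exact permutation p of 0.1 (0.12 adjusted over the 6 ratios). A p of 0.1 is the smallest that 3 libraries against 3 allow, so none could pass the threshold. As single genes, 62.2% of all tested genes did not overlap between groups. No such share was computed for other pairs of genes.

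**Figure D4:**
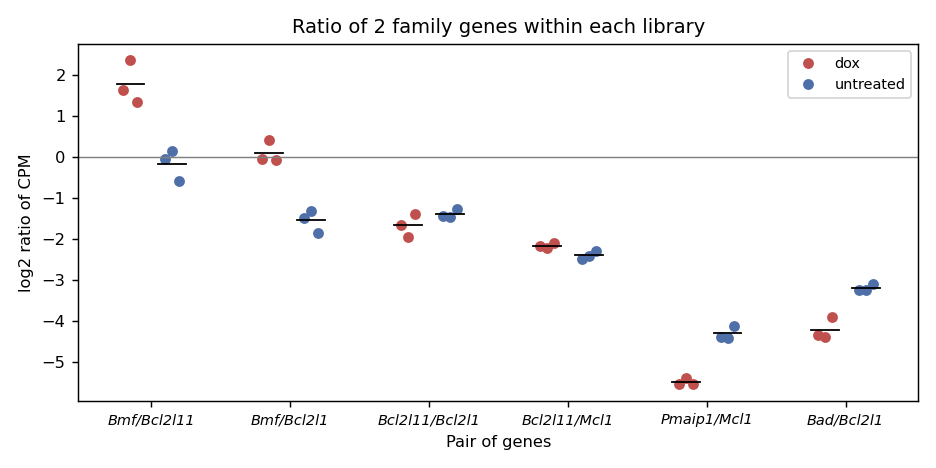
Log2 ratio of the CPM of 2 genes within each library, red for dox and blue for untreated, with black lines for group means. The groups overlap for Bcl2l11/Bcl2l1 and lie apart for the other 5 ratios.

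Genes known to control BH3-only transcription changed in both directions. Of 12 listed regulators, 11 were tested, 5 rose (Foxo1, Foxo4, Ddit3, Jun and Atf4), 3 fell (E2f1, Myc and Trp53) and 3 did not pass (Foxo3, Egr1 and Runx3). Their median log2 fold change was 0.28, against 0.01 over all tested genes, of which 27.0% were called higher and 26.6% lower. Foxo1, a forkhead factor of the family that activates Bcl2l11 and Bbc3, measured 416.2, 358.2 and 393.8 CPM after dox, against 230.1, 165.1 and 219.8 CPM untreated (log2 fold change 0.93, SE 0.12). Foxo3, the forkhead factor best known for inducing Bim, had a log2 fold change of 0.26 (SE 0.13, adjusted p = 0.11, edgeR). Myc, which sensitises cells to apoptosis, changed by −1.59 (SE 0.11) and E2f1, which can activate several BH3-only genes, by −1.41 (SE 0.08). Trp53, the activator of Bbc3 and Pmaip1, changed by −0.42 (SE 0.06). Jun, an AP-1 subunit, changed by 1.32 (SE 0.23). Foxo4 (0.28, SE 0.09) and Ddit3 (0.49, SE 0.16), the stress factor also called Chop, were not called without dox replicate 1, without untreated replicate 2 or without untreated replicate 3, each of which left 3 genes higher, and Foxo4 was also lost without dox replicate 2.

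The partners that hold or modify BH3-only proteins were split as well. Of 22 tested, 6 rose, 8 fell and 8 did not pass, with a median of −0.11. Among all tested genes, 27.0% were called higher and 26.6% lower, and the partner counts were not tested against these shares. Dynll2, the dynein light chain that tethers Bmf, measured 37.64, 34.53 and 34.96 CPM after dox, against 54.45, 60.51 and 74.44 CPM untreated (log2 fold change −0.82, SE 0.11, adjusted p = 0.000318, edgeR). It thus lay lower in every dox library while Bmf lay higher. Dynll1, the related light chain that binds Bim, was not called (−0.06, SE 0.11), nor was the myosin gene Myo5a (0.04, SE 0.17). Ppp3ca, a catalytic subunit of calcineurin, which can dephosphorylate Bad, rose by 0.58 (SE 0.07). Of 6 genes for 14-3-3 proteins, which bind phosphorylated Bad, Ywhab, Ywhae, Ywhah and Ywhaq fell and Ywhag and Ywhaz did not pass. Among the Pim kinases, which can phosphorylate Bad, Pim1 (0.56, SE 0.12) and Pim2 (1.13, SE 0.40) rose and Pim3 (−0.71, SE 0.11) fell. Pim2 measured 59.43, 14.76 and 27.59 CPM in dox replicates 1, 2 and 3 and 16.22, 14.02 and 16.18 CPM untreated, so its groups overlapped. Pim2 was not called by the DESeq2 test, by limma voom, or when dox replicate 1, dox replicate 3 or any one untreated replicate was left out. The number of partners lower was 5 without untreated replicate 2 (Dynll2, Ywhae, Ywhah, Pim3 and Mapk3), and Ywhaq was also not called without dox replicate 2 or untreated replicate 3.

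Genes of the death receptor route to Bid differed in direction. Of 8 listed, 6 were tested, Cflar and Tradd rose, Fadd fell, and Fas, Ripk1 and Casp8 did not pass (median 0.10). Shares called over all tested genes were 27.0% higher and 26.6% lower. Casp8, the protease that cuts Bid, measured 156.8, 161.8 and 166.3 CPM after dox and 164.1, 170.1 and 183.6 CPM untreated. Cflar, the decoy that restrains caspase-8, changed by 0.64 (SE 0.08, adjusted p = 0.000141) and the adaptor gene Fadd by −0.51 (SE 0.11, adjusted p = 0.00285, edgeR). Tradd (0.24, SE 0.09, adjusted p = 0.0436, edgeR) was not called when dox replicate 1 or any one of the untreated replicates was left out.

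Downstream of the pore, 4 of 17 tested genes rose, 7 fell and 6 did not pass (median −0.18). The risers were Casp9, the initiator caspase of the apoptosome (0.66, SE 0.08), and the inhibitor genes Xiap (0.48, SE 0.07), Birc2 (0.77, SE 0.07) and Birc3 (1.71, SE 0.12). Among the genes that fell was Birc5, which encodes survivin and is expressed in mitosis (−1.0, SE 0.12). Apaf1, the scaffold of the apoptosome, was not called (0.02, SE 0.07). Of 10 genes with a less typical BH3 region or a looser tie to the family, 6 were tested and Bnip3l (0.52, SE 0.08), Bnip3 (0.84, SE 0.15), Becn1 (0.23, SE 0.06) and Huwe1 (0.35, SE 0.10) rose, with a median of 0.29. Becn1 was not called without dox replicate 1 or untreated replicate 2, nor Huwe1 without untreated replicate 1. Bnip3 and Bnip3l are mitophagy receptors, Becn1 acts in autophagy and Huwe1 is a ubiquitin ligase of Mcl1. The counts of both lists stand beside 27.0% of all tested genes called higher and 26.6% called lower.

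The genes most like each called BH3-only gene were found by the root-mean-square distance between log2 CPM profiles over the 6 libraries, each centred on its mean. For Bmf these were Mir1a-1hg, a microRNA host transcript (distance 0.138), and Scn4a, a sodium channel gene (0.201). Mir1a-1hg measured 16.19, 25.41 and 15.88 CPM after dox and 2.376, 2.415 and 1.903 CPM untreated, with dox replicate 2 highest as for Bmf. For Bcl2l11 the nearest were 1600014C10Rik (0.026) and Sgpl1, the sphingosine phosphate lyase (0.046). For Bid they were Nop2, a nucleolar RNA methyltransferase (0.025), and Sgf29, a chromatin reader (0.029). For Pmaip1 they were Alg3, a mannosyltransferase (0.035), and Entrez gene 100503928, which had no symbol in the reference (0.038). Distances this small are a description of 6 libraries that split into the same groups.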

How the data were processed

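RNA of sorted leukemia cells was sequenced in 3 dox and 3 untreated libraries. The authors deposited raw counts per Entrez gene, beside a gene length. Tools named in the submitters' processing notes are featureCounts and CASAVA 1.8.2, with build mm9. Aligner, annotation and strand setting were not given in the sources used here. The 6 per-sample files held the same counts as the series table. Of 26286 identifiers, 24176 matched a RefSeq symbol.

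Counts were filtered with filterByExpr (minimum count 10), which left 12275 genes with 99.93% of all reads, scaled by TMM (factors 0.9907 to 1.009) and tested with edgeR 4.0.16 in R 4.3.3, without covariates. Each SE is the log2 fold change divided by the root of F, and 95% intervals use the degrees of freedom of that test. RPKM is CPM per kilobase. Group labels come from sample titles. Nothing says that the libraries were made independently beyond the separate mice of the design text. The p-values weigh group differences against the spread between these samples of a single leukemia, and do not extend to other leukemias. The scripts were tested on simulated counts. Alternatives were DESeq2 1.42.0, limma 3.58.1 voom, other scalings and filters, a replicate block, a minimum fold and leaving out each library.

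The BH3-only genes and all gene lists were chosen with earlier results of these data known. Genes named are the members, tested guardians and pore formers, the 3 smallest p per other list, those behind counts of 5 or fewer, the 2 nearest profiles and overlapping neighbours; further list genes, Pax5 and marker values are named for context or were chosen after their values were seen. Some genes that the rule covers are not reported here. Distances between profiles used a pseudocount of 0.5 CPM.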

Additional observations from a re-analysis of the deposited data

How the results depend on the processing

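Bmf and Bcl2l11 higher and Bid and Pmaip1 lower was the outcome under every scaling, filter and test tried and without any single library, except that with a minimum fold change of 1.5 the BH3-only genes called lower numbered 0. With that minimum, 928 genes were called higher and 670 lower among all genes, against 3316 and 3266. Leaving out 1 library gave log2 fold changes of 2.60 to 3.03 for Bmf, 0.86 to 0.97 for Bcl2l11, −0.72 to −0.67 for Bid, −0.61 to −0.47 for Pmaip1, 0.12 to 0.20 for Bad and −0.15 to 0.42 for Bbc3, which was negative without dox replicate 1 (−0.11), dox replicate 3 (−0.03) or untreated replicate 2 (−0.15). Bcl2 ranged from −0.07 (without untreated replicate 2) to 0.76. Among the lists, leaving out 1 library gave 1 to 2 pore formers lower, 3 to 5 transcription regulators higher, 5 to 9 partners lower, 5 to 6 partners higher, 6 to 8 caspase pathway genes lower, 3 to 4 atypical BH3 genes higher and 1 to 2 death receptor genes higher. The last was 1 (Cflar) also with total counts alone, no low-count filter, the DESeq2 test and limma voom. The differences in log2 ratio ranged from 1.64 to 2.16 for Bmf/Bcl2l11, 1.5 to 1.77 for Bmf/Bcl2l1, −0.42 to −0.14 for Bcl2l11/Bcl2l1, 0.19 to 0.29 for Bcl2l11/Mcl1, −1.25 to −1.10 for Pmaip1/Mcl1 and −1.17 to −0.93 for Bad/Bcl2l1. The cause of these moves was not tested.

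Replicate numbers were not used to pair the samples in the main test. Deviations from group means correlated across genes at 0.315, 0.293 and −0.04 for replicates 1, 2 and 3 of the dox and untreated groups. Dox replicate 2 against untreated replicate 1 gave −0.287, and dox replicate 1 against untreated replicate 2 gave −0.35. Whether same-numbered samples share a source was not tested. With the replicate number as a block, 3434 genes were higher and 3356 lower, and the log2 fold changes were 2.85 for Bmf, 0.91 for Bcl2l11, −0.70 for Bid, −0.52 for Pmaip1, 0.17 for Bad and 0.09 for Bbc3, with the same 4 of them called. At this depth Bik and Hrk cannot be assessed, and the interval of Bbc3 allows a rise or a fall.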

Other observations

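Bbc3 was lowest in replicate 2 of each group (5.151 CPM after dox, 5.501 CPM untreated). Of 12275 tested genes, 61 had a replicate 2 under 0.6 of the lower of replicates 1 and 3 in both groups, 29 of them with 5 CPM or more in a library, a cutoff chosen after the values of Bbc3 had been seen. Among the 29 was Dntt, the terminal transferase of early lymphocytes (36.0, 16.78 and 28.75 CPM in dox replicates 1, 2 and 3, and 38.51, 18.45 and 48.2 CPM in untreated replicates 1, 2 and 3). Whether this relates to the labels' replicate numbers was not tested.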
